A study of Mus musculus with 4 samples.

Results

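Type I interferon-stimulated effector genes are the genes that cells switch on when interferon alpha or beta binds its receptor. The 42 members were listed by symbol, and all 42 were found among the 22422 genes of the deposited table once Ensembl identifiers were matched to mouse symbols without their version numbers. Type I interferons act through the receptor IFNAR1/IFNAR2 and the kinases JAK1 and TYK2. These activate the factor ISGF3, which contains STAT2 and IRF9. ISGF3 binds the interferon-stimulated response element (ISRE) of its target genes, whose products block viral entry, translation, replication and release. In the gut, epithelial cells also answer interferon lambda, which uses another receptor and the same factor. ELF4, the factor deleted here, belongs to the ETS family and has been described as an activator of type I interferon genes.

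The RNA came from whole distal colon of C57BL/6 females aged 6 weeks. The mice had taken 2% dextran sulfate sodium (DSS), a polysaccharide that injures the colonic epithelium, for 5 days. Wild-type mice gave 2 libraries and Elf4fl/fl-Villin-Cre mice gave 2; all had DSS, and no colon without DSS was analysed here. In the latter, Cre made under the villin promoter deletes loxP-flanked Elf4 in intestinal epithelium, while other cells of the tissue keep the gene. For Elf4fl/fl-Villin-Cre mice the sample labels give the strain as C57BL/8, where the series design has C57BL/6. The labels do not say which alleles the wild-type mice carried, whether the genotypes were littermates or whether replicates were separate animals, so p-values measure the spread between these libraries, which may be partly technical.

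Whole reads could be recovered from the deposited values and came to between 15885028 and 16425954 per library. Replicates correlated across genes at 0.972 in wild type, against 0.973 for Elf4fl/fl-Villin-Cre (Pearson r of log2 values; genes are not independent replicates), and libraries of different genotype at 0.939 to 0.961. Elf4 itself (ENSMUSG00000031103.12, chromosome X, 48411046 to 48463132, build mm10 as for all genes below) measured 1588 and 1938 normalised reads per wild-type library; Elf4fl/fl-Villin-Cre colon gave 897 and 758, both lower. It fell by 1.09 ± 0.16 on the log2 scale (SE; limma adjusted p = 0.0139), but the table holds no values per exon, so the deleted stretch could not be examined. Among markers of the tissue, all 10 genes of colonic epithelium had lower values in both Elf4fl/fl-Villin-Cre libraries than in either wild-type library, with a median log2 fold change of -1.67, and 8 of them passed the test.

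The ISRE is shown first because it is the element through which ISGF3 acts. The search took its core, a pair of GAAA blocks with any 2 bases between them, on both strands (TTTC blocks on the other), in 300-base windows that run from 250 bases before to 50 bases after each RefSeq gene start of build GRCm38.p6. Of the members, 35 had a window, and 14 of these (40.0%) held at least 1 match, against 3.99% of the 27025 genes with a window. Matches were found in larger shares of 2 related lists, in 23 of 36 other interferon-stimulated genes (63.9%) and in 9 of 10 genes that answer mainly interferon gamma (90.0%). The sequences below run 5′ to 3′ along the gene's strand, with the matched bases in capitals. Isg15 has 3 overlapping matches. The stretches of Ifit3 and Ifit3b are spelled alike, and those 2 genes, Ifit1, Ddx60 and Bst2 hold 2 matches each.
Isg15 (chr4:156200855-156200916, minus strand): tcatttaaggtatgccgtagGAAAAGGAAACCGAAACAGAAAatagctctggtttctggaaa
Ifit1 (chr19:34640765-34640833, plus strand): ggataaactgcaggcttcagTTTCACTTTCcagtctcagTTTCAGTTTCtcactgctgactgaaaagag
Ifit3 (chr19:34583353-34583436, plus strand): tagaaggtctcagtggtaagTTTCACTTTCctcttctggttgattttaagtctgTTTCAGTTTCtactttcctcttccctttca
Ifit3b (chr19:34607749-34607832, plus strand): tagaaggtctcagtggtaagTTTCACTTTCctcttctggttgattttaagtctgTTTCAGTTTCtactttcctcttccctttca
Ddx60 (chr8:61928014-61928086, plus strand): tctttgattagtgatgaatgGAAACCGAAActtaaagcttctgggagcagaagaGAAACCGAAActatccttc
Rsad2 (chr12:26456543-26456592, minus strand): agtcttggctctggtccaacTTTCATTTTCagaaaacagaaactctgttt
Stat2 (chr10:128270256-128270305, plus strand): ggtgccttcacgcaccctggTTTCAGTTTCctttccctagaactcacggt
Bst2 (chr8:71537567-71537622, minus strand): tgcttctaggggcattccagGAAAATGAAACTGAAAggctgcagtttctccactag
Cxcl10 (chr5:92349073-92349122, minus strand): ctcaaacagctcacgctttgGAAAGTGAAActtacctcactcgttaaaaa
Ifitm2 (chr7:140955978-140956027, minus strand): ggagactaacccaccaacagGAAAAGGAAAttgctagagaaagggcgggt

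A match is a description of letters, not a shown binding site, and its absence says only that these letters are not in that window. Ifitm1, the member with the largest rise, and Cmpk2 and Parp12, which fell by 1.53 and 1.24 (log2), held no match. In Ifitm3, Trim21 and Eif2ak2 the matches lay after the start site. The median log2 fold change was -0.85 over the 14 members with one (6 lower, 1 higher by the test) and -0.81 over the 21 without (14 lower, 1 higher). The gamma-activated site TTCNNNGAA, which reads the same on both strands, was found in 6 of the 35 (17.1%, against 9.55% of all genes with a window). The ETS site CCGGAAG, sought on both strands, was found in 3 of the 35, Ifit2, Znfx1 and Rsad2 (8.57%, against 9.93% of all genes with a window).

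Most of the antiviral genes had less RNA in Elf4fl/fl-Villin-Cre colon. Of the 42 members, 24 fell and 2 rose (limma on log2 of the normalised value plus 1, Benjamini-Hochberg adjusted p under 0.05 over all 22050 genes tested). Among all those genes 8.6% were called lower and 6.86% higher. The median log2 fold change over the members was -0.83, beside 0.11 over all tested genes. A negative fold change means a lower level in Elf4fl/fl-Villin-Cre colon throughout. Both Elf4fl/fl-Villin-Cre values lay below both wild-type values in 31 members and above them in 3, and the groups overlapped in 8; over all tested genes 27.2% were separated downward and 35% upward, 62.2% in all. With edgeR on the recovered reads 28 members were lower and 2 higher (13.5% and 9.88% of 17337 genes tested), and 26 members were called by limma and edgeR in the same direction. With DESeq2 30 were lower and 2 higher (15.4% and 9.51% of 16750 genes with an adjusted p). No member was thinly covered: mean values ran from 260 to 6315 normalised reads.

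**Figure D1:**
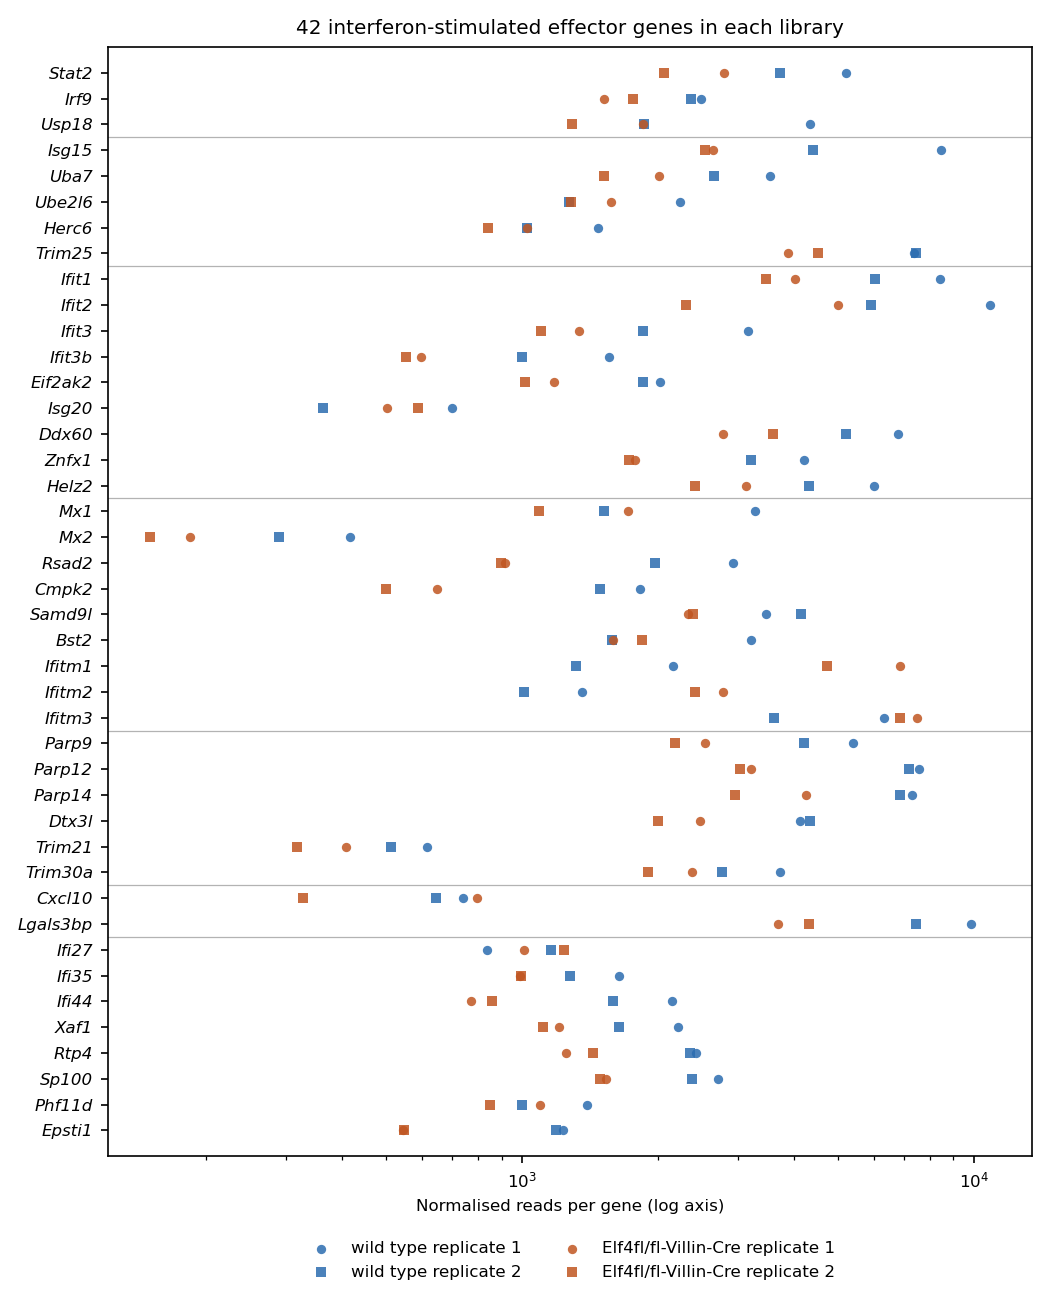
Normalised reads per gene (log axis) for the 42 members in each of the 4 libraries, grouped by role with grey lines between groups; circles are replicate 1 and squares replicate 2. The orange Elf4fl/fl-Villin-Cre points lie left of the blue wild-type points in 31 members and right of them in Ifitm1, Ifitm2 and Ifitm3.

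How far the libraries are scaled against each other bears on the count. With library totals made equal, which raises the median of all tested genes by 0.30 (log2), 12 members were lower and 2 higher, while 1194 of all genes were lower and 4114 higher in place of 1897 and 1512. With quantile normalisation 7 members were lower and 2 higher, beside 1302 and 1230 of all genes. With medians made equal, which lowers the median of all genes by 0.15, 29 members were lower and 2 higher, beside 2684 and 1143 of all genes. The members' median lay 0.92 to 0.94 below that of all genes in the deposited scaling and with totals or medians made equal. That likeness was nearly fixed in advance, because a single factor per library moves all genes almost alike. With quantile normalisation, which could change the distance, the members' median lay 0.59 below that of all genes. By the test 6 members fell under all 4 scalings (Cmpk2, Rsad2, Parp12, Epsti1, Ifi44 and Rtp4) and 2 rose (Ifitm1 and Ifitm2). The share of all genes called under all 4 scalings was not counted.

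The tissue is a mixture, and fewer cells of a type cannot be told apart from less RNA per cell in these libraries. The summed level of the 10 epithelial markers was 321879 and 356696 normalised reads in wild type against 115565 and 151751. That of 5 neutrophil markers went the other way, from 1011 and 515 to 5657 and 5552, with 5 of 5 called higher. Of 6 macrophage and monocyte markers 5 were higher, and their sums were 11881 and 8763 against 26621 and 17246. Of 5 genes listed for plasmacytoid dendritic cells, known as strong makers of type I interferon, 0 passed in limma. In edgeR, whose filter left out Siglech and Cox6a2, 0 passed, while DESeq2 called Klk1 lower (adjusted p = 0.00585). The list summed to 11342 and 8904 against 4220.2 and 7088, nearly all from Klk1, at 11222 and 8782 against 4031 and 6927. Neither that sum nor the Klk1 call can be read as a measure of these cells. The other 4 genes had log2 fold changes above 0, from 0.41 to 1.19, and the defining marker Siglech lay between 0 and 3.26 normalised reads. The part of these cell types in the members' values was not tested.

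Values below are normalised reads of wild type replicates 1 and 2, then, after "against", of Elf4fl/fl-Villin-Cre replicates 1 and 2. Irf9 encodes the DNA-binding subunit that completes ISGF3 (ENSMUSG00000002325.14, chromosome 14, 55603571 to 55610030). It had 2492 and 2363 normalised reads per wild-type library, against 1516 and 1760.0 in those of Elf4fl/fl-Villin-Cre colon. The groups did not overlap, and Irf9 fell by 0.57 ± 0.14 (limma adjusted p = 0.0423), the smallest decrease among the members called lower. Stat2, the partner that carries the activating domain, read 5220.5 and 3719 against 2796 and 2062. Its wild-type values were both higher, but at a log2 fold change of -0.88 it just missed the limma threshold (adjusted p = 0.0514; edgeR adjusted p = 0.0375). Usp18, which removes ISG15 from proteins and shuts off signalling at the receptor, read 4345 and 1864 against 1852 and 1289. Wild type replicate 1 stood apart, wild type replicate 2 and Elf4fl/fl-Villin-Cre replicate 1 were nearly equal, and the log2 fold change of -0.88 ± 0.40 did not pass (limma adjusted p = 0.192). Irf9 was not called by edgeR without wild type replicate 1 or 2 or Elf4fl/fl-Villin-Cre replicate 1, at adjusted p of 0.0754, 0.0789 and 0.163.

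ISG15 is a ubiquitin-like protein that is attached to other proteins by a chain of 3 enzymes, and its gene was among the most abundant members. Isg15 (ENSMUSG00000035692.6, chromosome 4, 156199424 to 156200818) had 8451 and 4409 normalised reads per wild-type library, against 2644 and 2533 in those of Elf4fl/fl-Villin-Cre colon. The Elf4fl/fl-Villin-Cre values were close to each other and below both wild-type values, which themselves lay almost a doubling apart. Isg15 fell by 1.24 ± 0.30 (limma adjusted p = 0.0429). Uba7, the activating enzyme, read 3537 and 2651 against 2007 and 1521 and fell by 0.81 (limma adjusted p = 0.049). Ube2l6, the conjugating enzyme, read 2239.9 and 1272 against 1571 and 1280.1, so that its groups overlapped (log2 fold change -0.25, limma adjusted p = 0.576), and its sign turned with library totals made equal (0.07). Herc6, the main ISG15 ligase in mice, also overlapped, at 1474 and 1023 against 1027 and 839. Trim25, a ligase that acts on the RNA sensor RIG-I and can attach ISG15, was tight within groups, at 7358 and 7424 against 3881 and 4518. It fell by 0.82 ± 0.15 (limma adjusted p = 0.0202). Of the 5 genes 3 passed as lower. Uba7 was not called by edgeR without wild type replicate 1 or 2 or Elf4fl/fl-Villin-Cre replicate 2 (adjusted p up to 0.115), and Trim25 without wild type replicate 2 or Elf4fl/fl-Villin-Cre replicate 1 (adjusted p up to 0.0738).

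The IFIT proteins bind viral RNA that lacks the cap marks of the host and block its translation. Their genes lie in a row on chromosome 19, with Ifit2 at 34550694 to 34576419, Ifit3 at 34583531 to 34588731, Ifit3b at 34607970 to 34613401 and Ifit1 at 34640871 to 34650009 (mm10), and gaps of 7.11, 19.2 and 27.5 kb between neighbours. All 4 had lower values in both Elf4fl/fl-Villin-Cre libraries, and 2 of the 4 passed. Ifit1 read 8396 and 6037 against 4007 and 3465 normalised reads and fell by 0.93 ± 0.20 (limma adjusted p = 0.0304). Ifit3b read 1557 and 999.97 against 596 and 554 and fell by 1.12 ± 0.22 (limma adjusted p = 0.0257). Both had Elf4fl/fl-Villin-Cre replicates much closer together than the genotypes were. Ifit3 read 3166 and 1855 against 1339 and 1100.3, with a log2 fold change of -0.997 (limma adjusted p = 0.055; edgeR adjusted p = 0.0332). Ifit2, at 10850.5 and 5928 against 4988 and 2307, had a log2 fold change of -1.24, one of the largest of the members. It did not pass (limma adjusted p = 0.105), and both genotypes had replicates about a doubling apart. Ifit3 and Ifit3b are close copies whose reads may have been shared between them, so the split is uncertain. With wild type replicate 1 left out, edgeR gave Ifit1 an adjusted p of 0.0648.

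Of 5 other genes whose proteins sense or destroy RNA, 4 fell. Eif2ak2 encodes PKR, which stops translation on binding double-stranded RNA, and read 2016 and 1848 against 1174 and 1017 normalised reads. It fell by 0.82 ± 0.14 (limma adjusted p = 0.0177). Znfx1, an RNA helicase on mitochondria that binds viral RNA, read 4212 and 3202 against 1779 and 1722; its Elf4fl/fl-Villin-Cre libraries nearly coincided. It fell by 1.07 ± 0.17 (limma adjusted p = 0.0152). The helicase gene Ddx60 fell by 0.91 and Helz2, which encodes a helicase domain coactivator, by 0.89 (limma adjusted p = 0.0319 and 0.0431). Isg20, an exonuclease of single-stranded RNA, read 698 and 362 against 502 and 587, with both Elf4fl/fl-Villin-Cre values inside the wild-type range. Its log2 fold change of 0.11 turned to -0.04 with medians made equal. Without wild type replicate 1, edgeR did not call Ddx60 or Helz2 (adjusted p = 0.0717 and 0.0998), nor Ddx60 if replicate 1 of Elf4fl/fl-Villin-Cre was left out (adjusted p = 0.0761) or Helz2 without replicate 2 of that genotype (adjusted p = 0.0708).

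Rsad2 and Cmpk2 had the largest decreases of the members. Rsad2 encodes viperin, which turns CTP into a nucleotide that ends viral RNA chains, and Cmpk2 encodes a mitochondrial kinase that supplies nucleoside triphosphates. They are neighbours on chromosome 12, read in opposite directions, Rsad2 (ENSMUSG00000020641.16) at 26442746 to 26456452 and Cmpk2 (ENSMUSG00000020638.8) at 26469204 to 26479837, 12.8 kb apart. Cmpk2 had 1823 and 1490.0 normalised reads per wild-type library, against 649 and 498 in those of Elf4fl/fl-Villin-Cre colon. Rsad2 had 2934 and 1966 against 915 and 899.7. Neither gene's groups came near each other. Cmpk2 fell by 1.53 ± 0.18 and Rsad2 by 1.40 ± 0.20 (limma adjusted p = 0.00973 and 0.0136). Only 3.41% of tested genes had a lower fold change than Cmpk2 and 4.38% than Rsad2.

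The Mx proteins are dynamin-like GTPases that trap viral nucleocapsids. C57BL/6, like most laboratory strains, carries a defective Mx1 allele. The gene annotation used here classes Mx2 as a polymorphic pseudogene, and whether its RNA gives a working protein was not examined. Mx1 read 3273 and 1516 against 1716 and 1091 normalised reads, with Elf4fl/fl-Villin-Cre replicate 1 above wild type replicate 2 (log2 fold change -0.70, limma adjusted p = 0.27). Mx2, 72.4 kb away on chromosome 16, read 417 and 289.8 against 184 and 149.7, the lowest mean of the 42 members. Its groups were separate, and it fell by 1.06 ± 0.23 (limma adjusted p = 0.0318; edgeR adjusted p = 0.0754 without wild type replicate 1). Samd9l, which restricts poxviruses and translation, read 3463 and 4133 against 2332 and 2389 and fell by 0.68 (limma adjusted p = 0.0299). It was not called by edgeR without wild type replicate 2 or either Elf4fl/fl-Villin-Cre replicate (adjusted p = 0.0514 to 0.0855). Bst2 encodes tetherin, which holds budding virus on the cell surface, and its values of 3211 and 1577 against 1585 and 1839 overlapped (log2 fold change -0.40, limma adjusted p = 0.443). Without wild type replicate 1 the Bst2 log2 fold change was 0.11.

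The only 2 members that passed as higher are Ifitm genes. The family's genes encode small membrane proteins that keep enveloped viruses from fusing with the cell, and lie together on chromosome 7, Ifitm2 (ENSMUSG00000060591.9) at 140954837 to 140955987, Ifitm1 (ENSMUSG00000025491.14) at 140967221 to 140969825 and Ifitm3 (ENSMUSG00000025492.6) at 141009586 to 141010770, within gaps of 11.2 and 39.8 kb. Ifitm1 had 2157 and 1318 normalised reads per wild-type library, against 6848 and 4732 in those of Elf4fl/fl-Villin-Cre colon. Ifitm2 had 1355 and 1011 against 2779.5 and 2414. In both genes each Elf4fl/fl-Villin-Cre library exceeded each wild-type library by a wide margin. Ifitm1 rose by 1.75 ± 0.28 and Ifitm2 by 1.15 ± 0.18 (limma adjusted p = 0.0163 and 0.0154), and both were called higher in all 13 settings that used the 4 libraries. Ifitm3, at 6332 and 3606 against 7482 and 6861, had separate groups by a narrow gap and did not pass (0.58 ± 0.27, limma adjusted p = 0.201). The 3 genes are similar in sequence, and the counting may have shared or dropped some of their reads.

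Markers of several cell types were higher beside the Ifitm genes: 5 of 5 for neutrophils, 5 of 6 for macrophages and monocytes, 1 of 4 for leukocytes in general, 1 of 3 for B and plasma cells, 2 of 4 for fibroblasts, 1 of 3 for endothelium and 4 of 5 for erythroid cells passed. Over all tested genes 6.86% were called higher. Of 5 T and NK cell markers 0 passed in limma, and 0 in edgeR, whose filter left out Ncr1. Their median was 0.14 and their sums were 835 and 527 against 792 and 642. Fibroblast markers summed to 21696 and 18274 against 39902 and 43373, and erythroid markers had a median of 2.66. Smooth muscle markers went the other way: all 3 had negative log2 fold changes, with a median of -0.50, and 1 was called lower. Their sums were 98182 and 72641 against 46726 and 68433, and the genotypes overlapped in 2 of the 3. The neutrophil markers S100a8 and Csf3r rose by 3.28 and 2.15, and Ptprc, which encodes the leukocyte surface protein CD45, by 1.08 (limma adjusted p = 0.0117, 0.00737 and 0.0473); the part of these cell types in the rise of Ifitm1 and Ifitm2 was not tested. Ifitm6, on the same chromosome and named after its values were seen, read 41.2 and 22.1 normalised reads against 169 and 134. It too was higher in both Elf4fl/fl-Villin-Cre libraries. So was Ifitm5, named in the same way, at 19.5 and 14.8 against 44.0 and 30.9. Ifitm10, farther along the chromosome and also chosen after the values were seen, read 12.3 and 9.48 against 12.2 and 5.85, with overlapping groups. Without wild type replicate 2, edgeR called neither Ifitm1 nor Ifitm2 (adjusted p = 0.0564 and 0.0517).

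**Figure D2:**
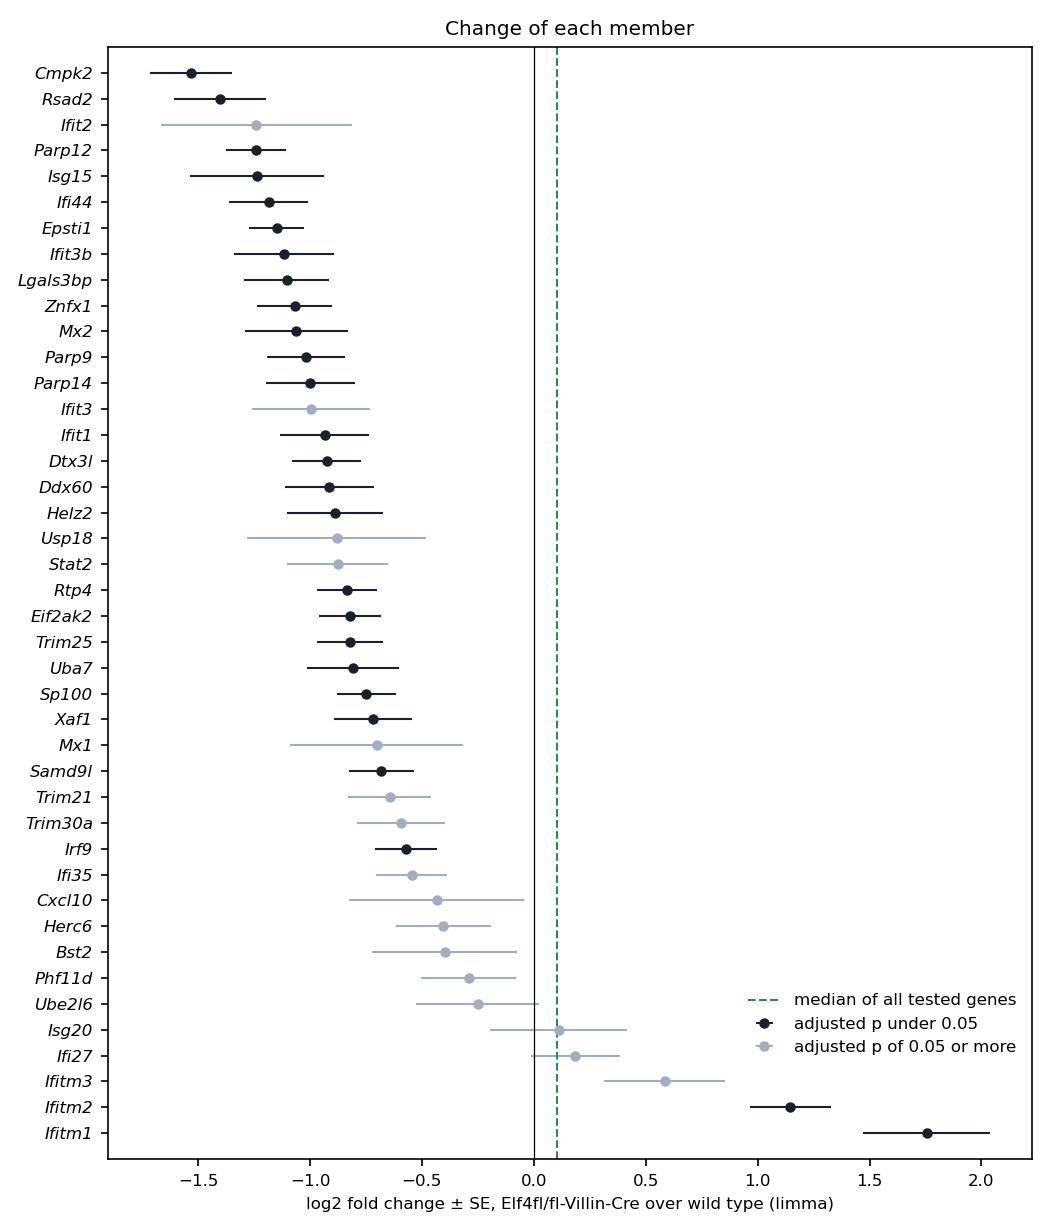
Log2 fold change of each member, Elf4fl/fl-Villin-Cre over wild type, with its standard error from limma (2 libraries per genotype); black points passed an adjusted p of 0.05, grey points did not, and the dashed line is the median of all tested genes (0.11). The 24 genes called lower run from -1.53 (Cmpk2) to -0.57 (Irf9), and the 2 called higher are Ifitm2 at 1.15 and Ifitm1 at 1.75.

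The ADP-ribosyltransferase genes Parp9, Parp12 and Parp14 fell, and so did Dtx3l, for a partner ligase. PARP9 and DTX3L form a complex that strengthens interferon signalling, and Parp14 modifies host and viral proteins. The start regions of Dtx3l (35926511 to 35939151) and Parp9 (35938470 to 35972605) overlap by 682 bases on opposite strands of chromosome 16, and Parp14 lies 55.0 kb from Dtx3l. Parp9 read 5402 and 4201 against 2535 and 2179.8 normalised reads and Dtx3l 4123 and 4337 against 2479 and 1997. The decreases were alike, 1.02 ± 0.17 and 0.93 ± 0.15 (log2; limma adjusted p = 0.0182 and 0.0174). Reads from the shared stretch cannot be assigned unless the counting used strand, which the sources used here do not give. Parp14 fell by 0.998 ± 0.20 (limma adjusted p = 0.026), with Elf4fl/fl-Villin-Cre values of 4237 and 2962 below the wild-type values of 7299.9 and 6859.7. With wild type replicate 2 left out, edgeR gave Dtx3l an adjusted p of 0.0606, and it did not call Parp14 without wild type replicate 1 or 2 (adjusted p up to 0.0770).

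Parp12, a transferase that gathers at stress granules and blocks translation, was one of the most tightly measured members (ENSMUSG00000038507.6, chromosome 6, 39086410 to 39118349). It had 7560.2 and 7193 normalised reads per wild-type library, against 3214 and 3029 in those of Elf4fl/fl-Villin-Cre colon, or 7376 ± 259.9 to 3122 ± 131 normalised reads (SD, n = 2 each). Replicates of each genotype nearly coincided, and Parp12 fell by 1.24 ± 0.13 (limma adjusted p = 0.00942). TRIM proteins of the list had smaller differences. Trim21, the intracellular antibody receptor, read 616 and 511 against 406 and 317 (log2 fold change -0.64, limma adjusted p = 0.0674). Trim30a, which dampens Toll-like receptor signalling in mice, read 3723 and 2763 against 2379.7 and 1900.5 (-0.59, limma adjusted p = 0.0969). Both had separate groups and neither passed in limma, while edgeR called Trim21 lower (adjusted p = 0.0479).

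Of the 2 secreted products, one fell and the other did not follow the genotype. Lgals3bp, a glycoprotein that binds galectins, read 9844 and 7433 against 3679 and 4305 normalised reads. It fell by 1.10 ± 0.19 (limma adjusted p = 0.0182). Cxcl10, the chemokine that draws CXCR3-bearing T cells and answers both type I interferon and interferon gamma, read 741 and 644 against 796 and 328. Elf4fl/fl-Villin-Cre replicate 1 was the highest of the 4 libraries and replicate 2 the lowest, the widest gap between replicates of any member at 1.28 on the log2 scale. Its log2 fold change of -0.43 ± 0.39 (limma adjusted p = 0.491) turned to 0.20 once Elf4fl/fl-Villin-Cre replicate 2 was left out. With replicate 1 of that genotype left out instead, edgeR called it lower (adjusted p = 0.0101). Cxcl10 overlaps Art3 on the opposite strand, so some of its reads may belong to that gene.

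The remaining 8 members have diverse or less defined roles, and 5 of them fell. Epsti1, which promotes the inflammatory state of macrophages, had the closest replicates (ENSMUSG00000022014.14, chromosome 14, 77904239 to 78002657). It went from 1228 and 1189.6 normalised reads to 543 and 546. It fell by 1.15 ± 0.12 (limma adjusted p = 0.00942). Ifi44, which limits cell growth and virus replication, read 2142 and 1590.0 against 769.6 and 855.3 (ENSMUSG00000028037.13, chromosome 3, 151730922 to 151749960). The groups lay far apart, and it fell by 1.18 ± 0.18 (limma adjusted p = 0.0141). Rtp4, which tempers interferon responses, fell by 0.84, and Sp100, a nuclear body protein that silences viral DNA, by 0.75 (limma adjusted p = 0.0162 and 0.0197). Xaf1, which favours apoptosis by opposing XIAP, fell by 0.72 (limma adjusted p = 0.044; edgeR adjusted p = 0.0709 without wild type replicate 1 and 0.0611 if Elf4fl/fl-Villin-Cre replicate 2 is left out). Ifi35, which sends interferon and danger signals onward, missed the limma threshold (log2 fold change -0.55, adjusted p = 0.0706; edgeR adjusted p = 0.0405). Phf11d overlapped between genotypes at 1391 and 999 against 1094 and 848. Ifi27, a small mitochondrial protein, read 835 and 1156 against 1007 and 1240.0, also with overlap.

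Levels can be set between genes only per length. Recovered reads were therefore divided by exon length and scaled to the same sum in every library (TPM). On that scale Ifitm3 had the highest mean over the 4 libraries, at 1562 and 926 TPM (wild type) against 2438 and 2093. Isg15 stood at 1870.3 and 1016 against 773 and 693 TPM. Isg15 exceeded Ifitm3 in both wild-type libraries and fell below it in both others. Next by that mean came Ifitm1, at 329.8 and 209.9 TPM against 1383 and 894, then Ifitm2, at 346 and 269 against 938 and 762. These 2 places come from the Elf4fl/fl-Villin-Cre libraries. By the wild-type mean Ifitm2 ranked 8 and Ifitm1 9 of 42, below Lgals3bp, Ifit1, Bst2, Ifit2 and Parp12, and the wild-type ranges of Ifitm1 and Ifitm2 overlapped, so their order there is not settled. Together the members took 0.9497% and 0.704% of reads in wild type, against 0.691% and 0.575% for Elf4fl/fl-Villin-Cre.

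Beyond the genotypes, the members differed between replicates. Wild type replicate 1 was higher than replicate 2 in 38 of the 42, with a median difference of 0.43 (log2), where the median over all tested genes was 0.01. In Elf4fl/fl-Villin-Cre colon replicate 1 was higher in 30 of 42, with a median of 0.21. Usp18, Mx1 and Bst2 had wild-type replicates over a doubling apart, and Cxcl10 and Ifit2 had Elf4fl/fl-Villin-Cre replicates over a doubling apart. In 32 members the change between genotypes was larger than the wider of the 2 replicate gaps, as it was in 51.1% of all tested genes. The gaps were wider still in 21 genes that answer mainly interferon gamma, such as guanylate-binding proteins, where replicate 1 was higher in 21 of 21 in each genotype. Their median gap was 1.21 in wild type, against 1.64 for Elf4fl/fl-Villin-Cre.

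**Figure D3:**
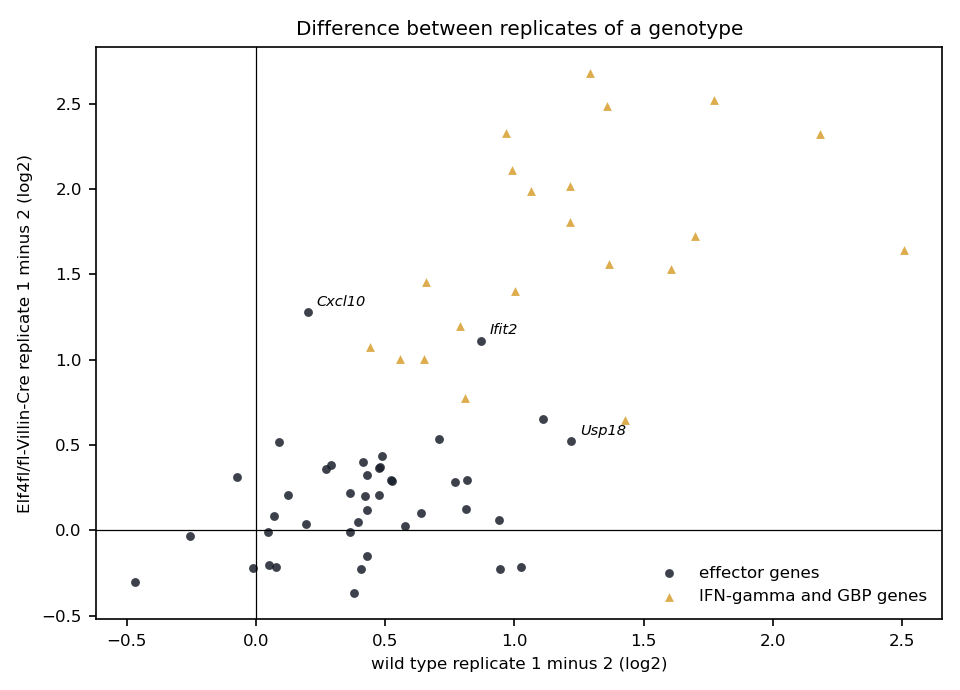
Difference between replicate 1 and replicate 2 on the log2 scale, in wild type (horizontal axis) and Elf4fl/fl-Villin-Cre colon (vertical axis), 1 point per gene for the 42 members (black) and 21 interferon-gamma and guanylate-binding genes (yellow). All 21 yellow triangles lie above 0 on both axes, and among members Cxcl10, Ifit2 and Usp18 reach farthest in their direction.

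Of the 44 signalling genes listed, 24 were measured, 4 fell and 2 rose, with 8.6% and 6.86% over all tested genes, so that the higher calls lie near the share of all genes. Their median log2 fold change was -0.05. Of 21 interferon ligand genes only Ifng was among them, at 4.12 and 2.11 normalised reads in wild type against 24.4 and 0.836. The other 20 were not found by symbol among the 22422 deposited genes, so they could not be analysed here. Irf7, the factor that amplifies interferon alpha production and is itself induced by interferon, read 14849 and 10887 against 4749 and 6063. It fell by 1.24 ± 0.22 (limma adjusted p = 0.019). Irf2, a factor that competes with Irf1, fell by 0.65 (limma adjusted p = 0.0325). The 2 receptor genes that fell were Ifnlr1, for the epithelial interferon lambda receptor, by 0.62 and Ifngr2, for interferon gamma, by 0.82 (limma adjusted p = 0.0286 and 0.0315). Ifnar1 and Ifnar2, of the type I receptor, had log2 fold changes of 0.40 and 0.90 (limma adjusted p = 0.129 and 0.0544). Ifnar2 was called higher by edgeR (adjusted p = 0.0448) and by DESeq2 (adjusted p = 0.0158), and Ifnar1 by neither. Ptpn2, for a phosphatase that dampens the pathway, rose by 0.78 and Socs3, for another inhibitor, by 0.76 (limma adjusted p = 0.0196 and 0.0489). With library totals made equal 1 signalling gene fell and 6 rose, and edgeR called 1 lower and 0 higher without wild type replicate 2.

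Many interferon-stimulated genes outside the members also had less RNA, though not all, while no gene of the interferon gamma list passed. In a list of 46 such genes, 45 of them measured, 23 fell and 0 rose (2 higher at an unadjusted p under 0.05; edgeR 24 lower and 0 higher), with a median of -0.77. Over all tested genes 8.6% were called lower. The other 22 were not called, and 10 of the 45 had positive log2 fold changes. Among these were Ifi203, Ifi204, Ifi207, Ifi209, Ifi211 and Ifi213, from 0.39 to 0.78. The oligoadenylate synthetase genes Oas1a and Oas1g, whose products wake RNase L, fell by 1.66 and 1.60 (limma adjusted p = 0.00942 and 0.00942). In the 21 interferon-gamma and guanylate-binding genes limma called 0, with 0 at an unadjusted p under 0.05, and edgeR called 0. Their median was 0.28, and the genotypes overlapped in 21 of 21. Gbp2, a GTPase that attacks membranes around microbes, read 12092 and 5783 against 16864 and 4242. In Ido1, which degrades tryptophan, the values were 3343 and 978 against 12728 and 2221. In both genes Elf4fl/fl-Villin-Cre replicate 1 was the highest library. With replicate 2 of Elf4fl/fl-Villin-Cre left out edgeR called 10 of the 21 higher, and with replicate 1 left out 2 lower, so the direction of this list depended on that library. Whether the lists differ from each other was not tested.

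**Figure D4:**
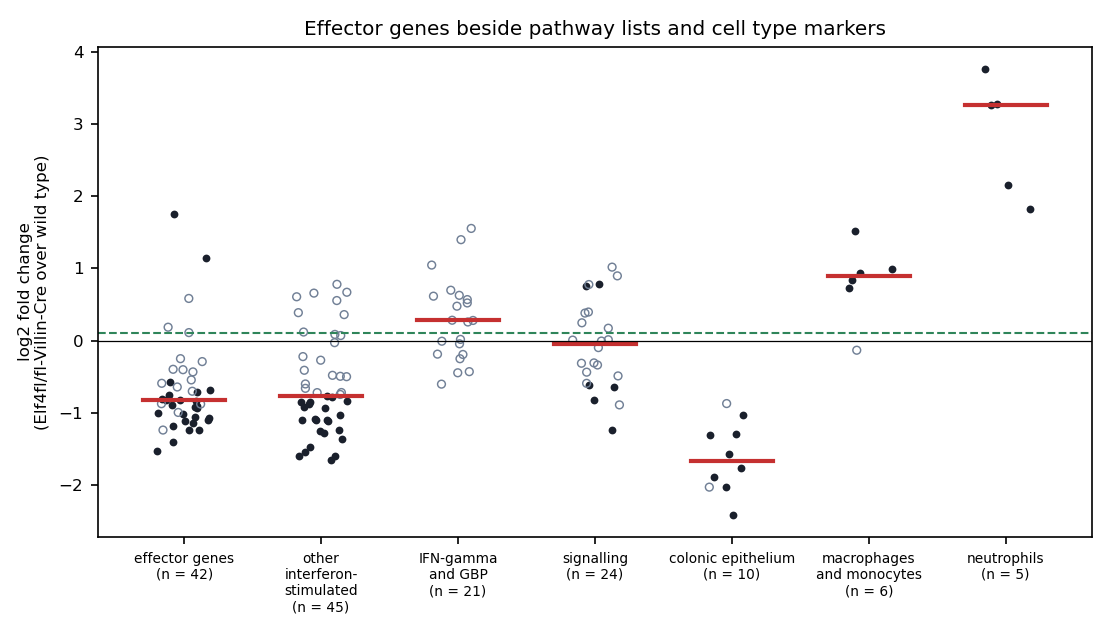
Log2 fold change of each gene (Elf4fl/fl-Villin-Cre over wild type) in the members, 3 pathway lists and 3 marker lists, with horizontal jitter; filled points passed a limma adjusted p of 0.05, open points did not, red bars are list medians and the dashed line is the median of all tested genes. The members and the other interferon-stimulated genes centre at -0.83 and -0.77, epithelial markers at -1.67, macrophage markers at 0.89 and neutrophil markers at 3.26.

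Leaving out 1 library tested how much each call leaned on it. The limma fits on 3 libraries called 0 of all tested genes (smallest adjusted p = 0.0773), so they say nothing about single members; 17 to 35 members (40.5% to 83.3%) were lower at an unadjusted p under 0.05, where 9.42% to 13.0% of all tested genes were. In edgeR 16 to 25 members were lower, with 16 when wild type replicate 1 was left out, beside 809 to 2191 of all genes. There were 13 members lower in all 4 of these edgeR fits, namely Isg15, Ifit3b, Eif2ak2, Znfx1, Rsad2, Cmpk2, Parp9, Parp12, Lgals3bp, Ifi44, Rtp4, Sp100 and Epsti1. The share of all genes lower in all 4 was not counted, so the 13 cannot be set against it. All 26 members called with 4 libraries kept their direction in each of the 4 limma fits. That was fixed in advance, because the groups of none of the 26 overlapped, so it says nothing about stability. For a single gene, an exact two-sided permutation test of 2 against 2 libraries cannot give a p below 0.333.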

How the data were processed

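The authors deposited 1 normalised signal per gene and library for 22422 genes. Dividing each library's values by its smallest value above 0 gave whole numbers (100% within 0.01), so the signal is reads over a single factor for each library, uncorrected for gene length, and the reads were recovered. Per the submitters' processing notes the build is mm10; which aligner and counter ran, and whether strand was used, is not given in the sources used here. GENCODE release M21 gave symbols and positions (22376 identifiers matched, 46 did not). The main test was limma (3.58.1, R 4.3.3) over all 4 libraries with genotype alone in the model, on log2(value + 1), with the prior variance following the mean level; genes with a mean under 1 were left out. The fit had 2 residual and 4.06 prior degrees of freedom. edgeR (4.0.16, TMM, filterByExpr) and DESeq2 (1.42.0) were run on the recovered reads as alternatives, beside other pseudocounts, filters and scalings, a replicate block and leaving out each library (for edgeR added after seeing the data), and the tests were checked on simulated data. Genes were named by role, smallest p, highest level per length and widest replicate gap. The members and lists were chosen with earlier results of these data known. Replicates differed beyond counting noise (chi-square per degree of freedom 24.6 and 25.3).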

Additional observations from a re-analysis of the deposited data

How the results depend on the processing

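Pseudocounts of 0.5 or 10, the filter on low values and the choice of count tool left 23 to 30 members lower and 2 higher. Of all genes they left 1816 to 2574 lower and 1365 to 1760 higher. Library totals made equal gave 12 members lower, and of all genes 1194 lower and 4114 higher; the signalling list then had 1 lower and 6 higher, and 2 other interferon-stimulated genes were higher. Quantile normalisation gave 7 members, 14 other interferon-stimulated genes and 1 signalling gene lower, beside 1302 of all genes. For signalling genes, medians made equal gave 8 lower and 1 higher, DESeq2 7 lower and 4 higher, and edgeR without a filter, a pseudocount of 0.5 and no filter on low values each 1 higher. The cause was not tested.

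The labels do not say whether a replicate number marks anything shared. Deviations of same-numbered replicates correlated at 0.10 over all genes and at 0.28 over the members, and 2 pairs cannot decide a pairing. With the replicate block, which leaves 1 residual degree of freedom, 32 members were lower and 2 higher, beside 2445 and 2066 of all genes. It also gave 7 signalling genes lower and 4 higher, 4 other interferon-stimulated genes higher, and 1 interferon-gamma gene lower and 2 higher.

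With 1 library left out, limma called 0 genes in every list and over all genes. In edgeR, leaving out wild type replicate 2 gave 809 lower and 476 higher of all genes, and leaving out Elf4fl/fl-Villin-Cre replicate 1 gave 844 higher; over its 4 such fits the ranges were 16 to 25 members lower and 0 to 3 higher, 809 to 2191 of all genes lower and 476 to 1563 higher, 1 to 5 signalling genes lower and 0 to 5 higher, 21 to 26 other interferon-stimulated genes lower and 0 to 3 higher, and 0 to 2 interferon-gamma genes lower and 0 to 10 higher.

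Signs turned only in members that had not passed. In the limma fits without 1 library no called member could turn, since none had overlapping groups. With library totals made equal Ube2l6 stood at 0.0650 and Phf11d at 0.0245. Isg20 stood at -0.0415 with medians made equal, -0.00906 in edgeR with DESeq2 size factors and -0.0165 in DESeq2. In limma with 1 library left out, log2 fold changes ran from -0.66 to 0.16 for Ube2l6, -0.91 to 0.11 for Bst2, -0.0485 to 0.42 for Ifi27, -0.36 to 0.58 for Isg20 (-0.00120 without Elf4fl/fl-Villin-Cre replicate 2) and -1.07 to 0.20 for Cxcl10. In edgeR, omitting wild type replicate 1 gave 0.12 for Ube2l6, 0.0725 for Bst2 and -0.0869 for Ifi27, omitting wild type replicate 2 gave -0.38 for Isg20, and omitting the second Elf4fl/fl-Villin-Cre library gave -0.11 for Isg20, 0.16 for Cxcl10 and -0.0220 for Ifi27. With 2 libraries per genotype, differences within the replicate gaps of Usp18, Mx1, Bst2 and Cxcl10 could not be resolved.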
